A study of Arabidopsis thaliana with 6 samples.

Results

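The genes described here carry the abscisic acid signal from kinase to transcription factor and ion channel in Arabidopsis thaliana: the protein kinase genes SNRK2.2, SNRK2.3 and SNRK2.6 (also called OST1), the transcription factor genes ABF1, ABF2, ABF3, ABF4 and ABI5, and the anion channel gene SLAC1. They were chosen by locus, and all 9 were among the 21981 genes of the deposited table. Leaf mRNA had been sequenced from 4-week-old Col-0 plants, 3 wild-type samples against 3 samples from separate transgenic lines, each line with 1 sample. All plants had been started on sucrose medium and then kept in soil at 22 °C with 16 h light and 8 h dark. The labels name neither the transgene nor its promoter. Their protocol speaks of drought treatment in the same wording for every sample, so the groups are not told apart by watering. Whether the wild-type samples are distinct plants is not stated, and p-values therefore cover only sample-to-sample spread, which may be technical.

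Abscisic acid is the hormone by which plants respond to drought. Bound to its PYR/PYL receptors, it blocks the clade A protein phosphatases 2C (PP2C), which otherwise hold SnRK2 kinases inactive. The freed kinases phosphorylate ABF factors, which bind ABRE promoter elements and switch on drought genes, and in guard cells SNRK2.6 phosphorylates SLAC1, whose anion efflux closes the stomatal pore. This route works mainly through protein phosphorylation, which mRNA levels do not show.

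Values are FPKM, sequenced fragments scaled for transcript length and library size, as the authors deposited them. Summed over all genes they came to between 970376 and 982620 per wild-type sample and between 1261802 and 1278449 per transgenic line. Why the sums differed was not tested, and the basis of the scaling is unknown. Read depth is unknown too, since FPKM hold no counts. Fold changes are therefore given as deposited, with other scalings beside those of the 9 genes where they change a call, and as counts for the pathway lists. The leaf markers RBCS1A, LHCB1.1, RCA and CA1 were all abundant, their summed level lying between 16544 and 17194 FPKM in wild type and between 28599 and 29456 FPKM in the lines. Root markers were nearly absent, at a summed 0.289 FPKM or less in every sample.

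Among the 9 genes, ABF1 and ABF4 fell and ABF2 rose in the transgenic lines, the 3 kinase genes, ABF3 and ABI5 did not pass the test, and SLAC1 was too low to be tested. Calls rest on limma applied to log2(FPKM + 1), at a Benjamini-Hochberg adjusted p under 0.05, for genes averaging 1 FPKM or more. That is 3 of 8 tested members, against 40.7% of all 17093 tested genes (25.0% higher and 15.7% lower), a share near the background. The changes were also small: the largest of a called member was 0.41 on the log2 scale, where the median size over all called genes was 0.58. The median log2 fold change of the 8 was -0.16, against 0.03 for all tested genes. Groups did not overlap in 5 of the 8, against 52.2% of all tested genes.

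**Figure D1:**
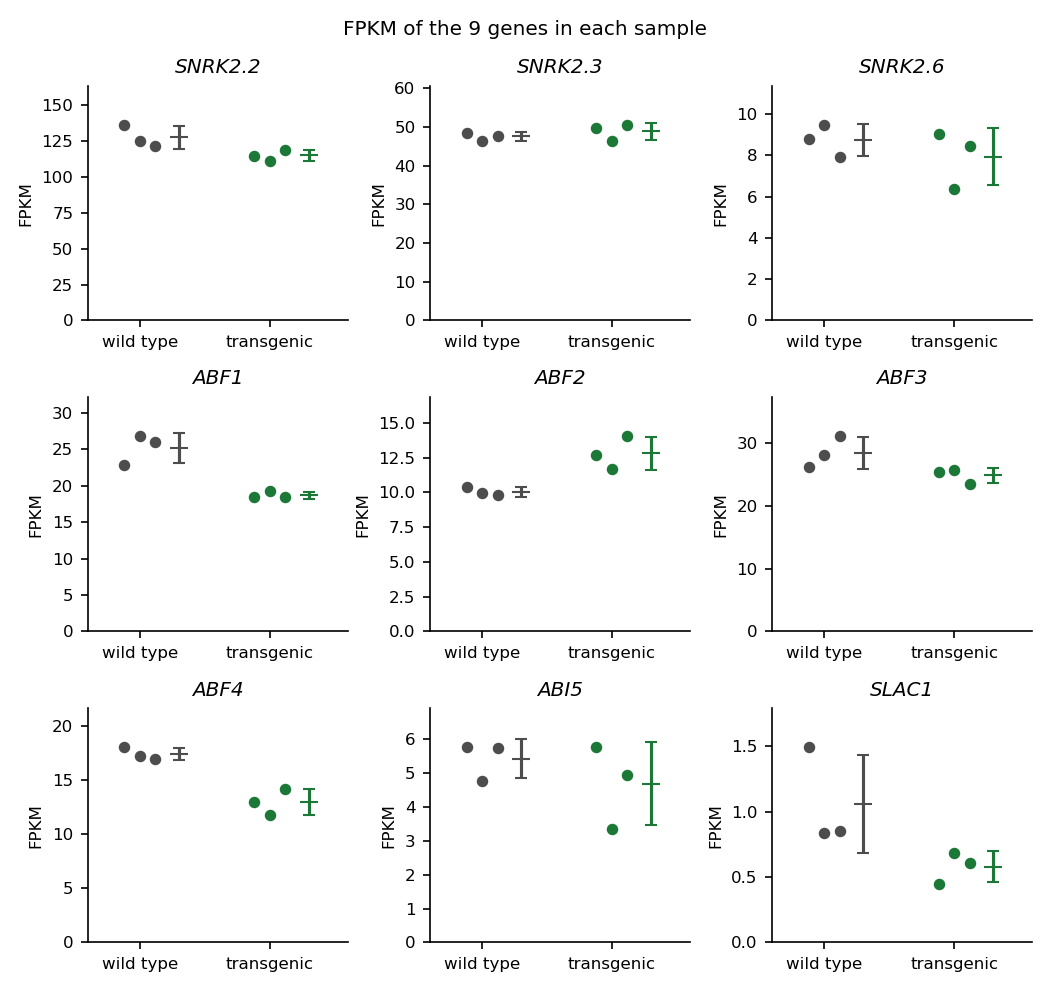
FPKM of the 9 genes (vertical axes, each from 0) in the 3 wild-type and 3 transgenic samples (points), with the mean and SD of each group beside them. The transgenic points of ABF1 and ABF4 lie below all wild-type points and those of ABF2 above them, while SNRK2.3, SNRK2.6 and ABI5 overlap.

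In wild type the mean levels ran from SNRK2.2 at 127.6 FPKM through SNRK2.3 (47.5), ABF3 (28.5), ABF1 (25.2), ABF4 (17.4), ABF2 (10.05), SNRK2.6 (8.73) and ABI5 (5.43) to SLAC1 at 1.06 FPKM. FPKM are scaled for length, so these levels can be set side by side. Neighbours in this order had separate ranges over the 3 samples except ABF3 and ABF1. In the transgenic lines the order was the same, but there ABF3 and ABF1 were apart, and ABF4 (13.0 FPKM) and ABF2 (12.8 FPKM) overlapped.

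SNRK2.2, which acts with SNRK2.3 in seeds and seedlings, was the most abundant of the kinases, with 136.2, 125.0 and 121.5 FPKM in wild-type replicates 1 to 3 and 115.0, 111.2 and 119.0 FPKM in lines 1 to 3. Every line was below every wild-type sample, but the difference missed the threshold (log2 fold change -0.15, SE 0.058, limma adjusted p = 0.0751). It passed under each of the 4 other scalings, with log2 fold changes of -0.20 (median-of-ratios factors, adjusted p = 0.0195), -0.44 (quantile, 0.000536), -0.43 (cyclic loess, 0.000463) and -0.52 (TPM, 8.45e-05), and as deposited without wild-type replicate 3 (-0.18, 0.0461). The gene (AT3G50500) lies on the minus strand of chromosome 3 at 18741444 to 18744174 on TAIR10.1.

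SNRK2.3, its close relative, held 48.5, 46.3 and 47.7 FPKM in the wild-type samples, against 49.6, 46.3 and 50.5 FPKM in the lines. The groups overlapped, and the log2 fold change was 0.04 (SE 0.062, limma adjusted p = 0.664). Its sign turned under every other scaling. After rescaling to TPM, where the median of all genes was -0.31, it passed as lower (-0.33, adjusted p = 0.00153). It (AT5G66880) lies on chromosome 5 at 26710302 to 26712971. Although the 2 proteins are known to be alike, none of the 1161 windows of 50 bases in the exons of SNRK2.3 occurred elsewhere in the genome, and the same held for all 9 genes.

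SNRK2.6, the kinase of guard cells, was the least abundant of the 3, with 8.79, 9.46 and 7.93 FPKM in the wild-type samples, against 9.005, 6.35 and 8.43 FPKM in the lines. Line 2 was the lowest and the other lines lay within the wild-type range. The log2 fold change was -0.13 (SE 0.14, limma adjusted p = 0.487), 0.0010 without line 2, and -0.47 after rescaling to TPM, where it passed (adjusted p = 0.0162). The gene (AT4G33950) lies on chromosome 4 at 16271745 to 16274825.

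The share of each kinase in the sum of the 3 is the same under any single scale factor per sample, such as TPM or median-of-ratios factors. Quantile normalization and cyclic loess can move it, and shares were computed on the values as deposited. SNRK2.2 held 70.4%, 69.2% and 68.6% in wild type and 66.2%, 67.9% and 66.9% in the lines, while SNRK2.3 held 25.1%, 25.6% and 26.9% and then 28.6%, 28.3% and 28.4%. Neither pair of groups overlapped. Shares within a family add up to the whole, so they are not independent of each other. The mean share of SNRK2.2 was 2.38 percentage points lower and that of SNRK2.3 2.53 points higher in the lines. Each gave an exact two-sided permutation p of 0.1, the smallest that 3 against 3 allow (0.175 adjusted over the 7 shares computed for kinases and ABF factors). The share of SNRK2.6 was 4.75% ± 0.419 in wild type and 4.60% ± 0.667 in the lines (SD, n = 3; exact permutation p = 0.9).

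The ABF genes encode the basic leucine zipper (bZIP) factors that bind ABRE elements in leaves under stress. The promoters of the bZIP genes are shown because the ABRE element is the site that their own products bind. Each sequence is the 250 bases before the annotated gene start, read 5′ to 3′ on the gene's strand from RefSeq's TAIR10.1 assembly, with every ABRE core (ACGTG on either strand) in capitals. ABF1 is at chr1:18399753-18400002 (plus strand), ABF2 at chr1:17167925-17168174 (minus), ABF3 at chr4:16295084-16295333 (plus), ABF4 at chr3:6686792-6687041 (plus) and ABI5 at chr2:15207637-15207886 (minus).
ABF1: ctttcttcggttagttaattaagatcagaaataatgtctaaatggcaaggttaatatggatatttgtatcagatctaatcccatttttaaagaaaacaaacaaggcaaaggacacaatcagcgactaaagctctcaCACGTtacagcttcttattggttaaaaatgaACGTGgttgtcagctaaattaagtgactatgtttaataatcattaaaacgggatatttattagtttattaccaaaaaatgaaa
ABF2: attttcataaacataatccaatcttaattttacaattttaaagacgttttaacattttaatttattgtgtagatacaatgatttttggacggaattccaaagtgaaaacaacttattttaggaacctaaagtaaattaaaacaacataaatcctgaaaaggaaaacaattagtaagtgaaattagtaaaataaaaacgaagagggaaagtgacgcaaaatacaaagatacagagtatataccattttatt
ABF3: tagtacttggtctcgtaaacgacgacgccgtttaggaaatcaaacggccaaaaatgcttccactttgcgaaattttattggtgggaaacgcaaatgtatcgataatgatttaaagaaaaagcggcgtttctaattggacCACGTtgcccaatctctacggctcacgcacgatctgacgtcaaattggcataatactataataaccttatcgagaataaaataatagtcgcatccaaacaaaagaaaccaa
ABF4: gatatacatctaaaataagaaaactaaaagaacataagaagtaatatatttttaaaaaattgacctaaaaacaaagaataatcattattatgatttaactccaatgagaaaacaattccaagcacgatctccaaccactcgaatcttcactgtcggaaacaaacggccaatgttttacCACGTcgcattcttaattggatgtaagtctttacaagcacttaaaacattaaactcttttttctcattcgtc
ABI5: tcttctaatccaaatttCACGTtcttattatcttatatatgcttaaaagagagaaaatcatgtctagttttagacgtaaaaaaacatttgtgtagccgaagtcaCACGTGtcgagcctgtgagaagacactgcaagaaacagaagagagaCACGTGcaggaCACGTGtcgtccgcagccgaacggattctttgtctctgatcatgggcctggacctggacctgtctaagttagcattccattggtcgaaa
Overlapping matches on both strands, as in CACGTG, count as 1 site. ABF1 had 2 sites, ABF3 and ABF4 had 1 each, and ABF2 had 0. ABI5 had 4, of which 3 were CACGTG. Of 27443 protein-coding promoters of the same length on chromosomes 1 to 5, 22.9% held at least 1 site, 4.98% at least 2 and 0.24% at least 4. SNRK2.3 had 1 site, and SNRK2.2, SNRK2.6 and SLAC1 had 0. The longer form ACGTGGC was in 0 of the 9 windows and in 3.37% of all. The cold and drought element core CCGAC, searched on both strands, was in 1 of the 9, that of ABF4, and in 12% of all. These are matches of letters, and binding was not measured. A link between such sites and the direction of change was not tested.

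**Figure D2:**
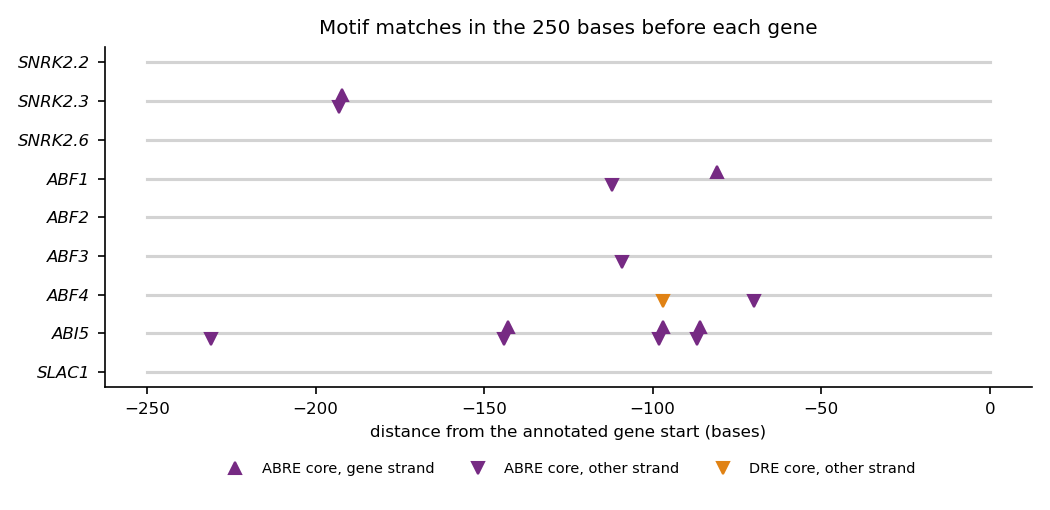
Matches to the ABRE core (purple) and the DRE core (orange) in the 250 bases before each of the 9 genes, by distance from the annotated gene start in bases (horizontal axis) and by strand (triangle direction). ABI5 holds the most, with 4 sites, and SNRK2.2, SNRK2.6, ABF2 and SLAC1 hold 0.

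ABF1 was at 22.8, 26.8 and 25.9 FPKM in the wild-type samples, against 18.4, 19.2 and 18.4 FPKM in the lines. All 3 lines were below the lowest wild-type sample. The log2 change of ABF1 was -0.41 (SE 0.084, limma adjusted p = 0.004), and its mean fell by 25.8%. It passed under all 15 alternatives, with adjusted p from 8.84e-05 to 0.021.

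ABF4, active in the same stress response, was at 18.1, 17.3 and 16.97 FPKM in the wild-type samples, against 13.0, 11.8 and 14.2 FPKM in the lines. Again no line reached the wild-type range. The log2 change of ABF4 was -0.40 (SE 0.094, limma adjusted p = 0.0081). Its mean fell by 25.4%, and it passed under all 15 alternatives (adjusted p from 0.000165 to 0.0328).

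ABF2, also known as AREB1, went the other way, with 10.4, 9.93 and 9.78 FPKM in the wild-type samples, against 12.7, 11.7 and 14.1 FPKM in the lines. All 3 lines were above all wild-type samples. The log2 rise of ABF2 was 0.32 (SE 0.1, limma adjusted p = 0.0308), a mean 27.5% above wild type. The call was weak: it ended in 5 of the 6 fits that left out 1 sample (without any wild-type replicate and without line 1 or 3, adjusted p from 0.0548 to 0.0959), with median-of-ratios factors (0.0522) and after rescaling to TPM, where the log2 fold change was -0.030 (adjusted p = 0.808). With only line 2 left out it passed (0.0271).

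ABF3, the most abundant of the 4, was at 26.1, 28.2 and 31.1 FPKM in the wild-type samples, against 25.4, 25.7 and 23.5 FPKM in the lines. The groups came within 1 FPKM of each other without overlapping. The log2 fold change of -0.18 missed the threshold (SE 0.085, limma adjusted p = 0.118). It passed after quantile normalization (-0.31, adjusted p = 0.0246), cyclic loess (-0.30, 0.0233) and rescaling to TPM (-0.55, 0.0006).

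**Figure D3:**
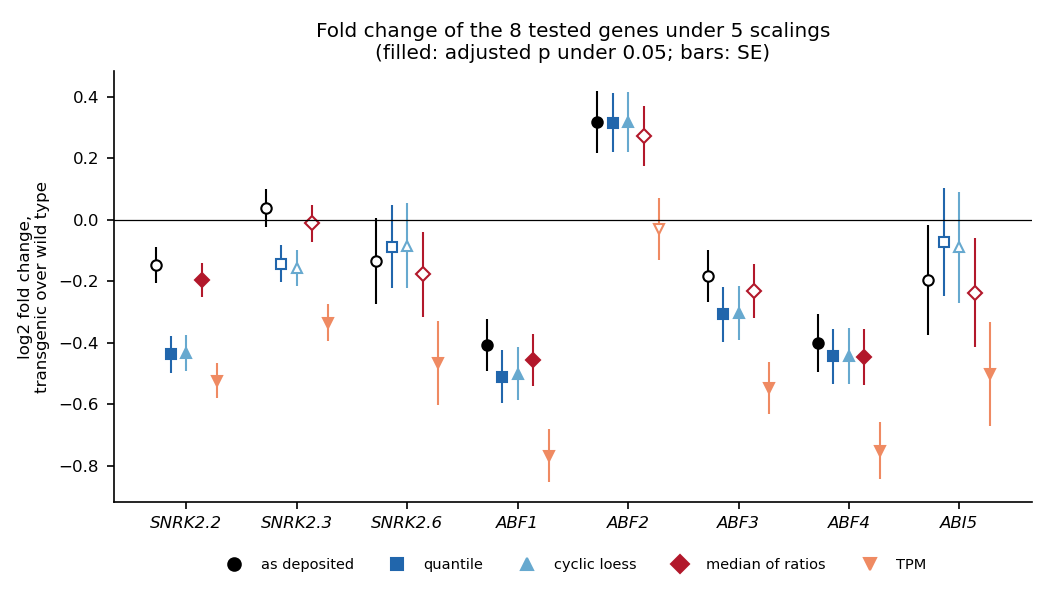
Log2 fold change, transgenic over wild type (vertical axis, bars are SE), of the 8 tested genes under 5 scalings, filled where the limma adjusted p was under 0.05. ABF1 and ABF4 are filled and below 0 under all 5, while ABF2 is above 0 under 4 and at -0.030 under TPM.

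Rescaling to TPM moved the median log2 fold change of all genes from 0.03 to -0.31, so the TPM values are read against that shift. Relative to it, ABF1 (-0.77) and ABF4 (-0.75) were still lower and ABF2 (-0.030) higher than the median gene. SNRK2.3 (-0.33) lay close to the median gene. The other scalings kept that median between -0.02 and -0.006. With TPM, 1907 of the 17093 tested genes were called higher and 8363 lower. The TPM counts of the lists are read against these.

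Within the ABF family, ABF2 held 13.5%, 12.1% and 11.7% of the summed FPKM in wild type and 18.2%, 17.1% and 20.0% in the lines, with no overlap. The sum itself was 81.1 ± 3.30 FPKM in wild type and 69.4 ± 0.899 FPKM in the lines (SD, n = 3). The share of ABF1 was 31.0% ± 1.59 in wild type and 26.9% ± 1.03 in the lines, again with no overlap. Both differences gave an exact permutation p of 0.1, the smallest possible (0.175 adjusted over the 7 shares). The share of ABF4 was 21.5% ± 1.61 against 18.7% ± 1.53, where the groups overlapped (exact p = 0.2), and that of ABF3 was 35.05% ± 1.83 against 35.9% ± 2.13 (exact p = 0.8). The ratio of ABF4 to ABF2, chosen after its values were seen and given without a test, was 1.73 to 1.74 in the wild-type samples and 1.01 to 1.03 in the lines. The ratio of ABF1 to ABF4 overlapped between groups, at 1.26 to 1.55 and 1.29 to 1.64.

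**Figure D4:**
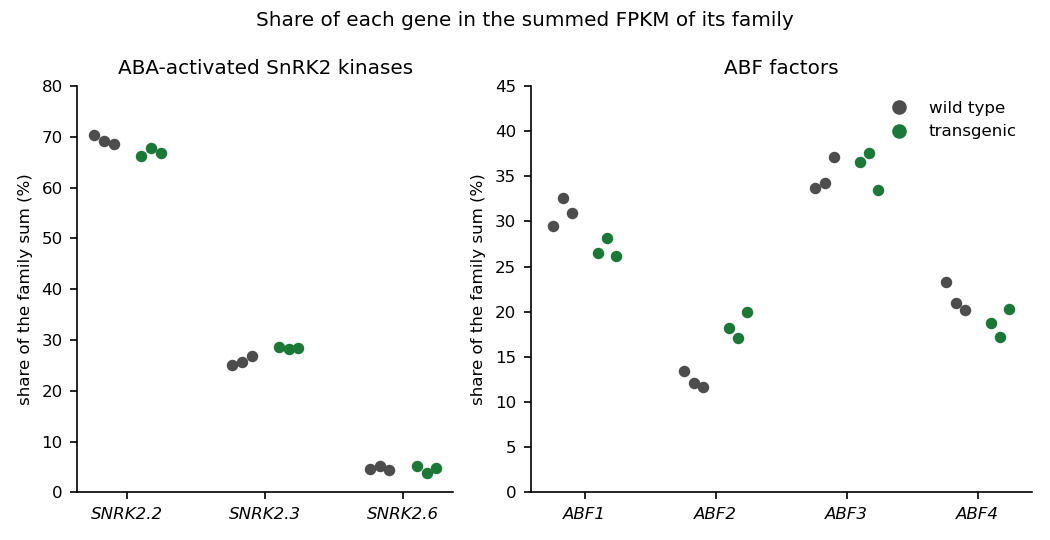
Share of each gene in the summed FPKM of its family (vertical axes, percent, from 0), with 1 point per sample. The transgenic points of ABF2 and SNRK2.3 lie above, and those of ABF1 and SNRK2.2 below, all wild-type points.

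ABI5, the bZIP factor that arrests germination in the presence of abscisic acid, was measurable in these leaves, at 5.77, 4.77 and 5.75 FPKM in the wild-type samples, against 5.77, 3.36 and 4.95 FPKM in the lines. Lines 1 and 3 lay at or inside the wild-type range and line 2 below it. The log2 fold change was -0.20 (SE 0.178, limma adjusted p = 0.419), -0.015 without line 2 and -0.50 after rescaling to TPM, where it passed (adjusted p = 0.0297). EM1 and EM6, seed genes that ABI5 is known to bind, were at most 0.707 and 0.092 FPKM in any sample. Of the other seed markers, CRA1, CRU3 and OLEO1 were at most 0.364 FPKM, and only the albumin gene SESA1 was measurable, at 6.20 ± 1.27 FPKM in wild type and 3.87 ± 1.25 FPKM in the lines (SD, n = 3; limma adjusted p = 0.0539).

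SLAC1, the slow anion channel of guard cells, was at 1.49, 0.836 and 0.854 FPKM in the wild-type samples, against 0.446, 0.683 and 0.608 FPKM in the lines. Every line was below every wild-type sample, and wild-type replicate 1 stood above the other wild-type samples. Its mean over the 6 samples, 0.820 FPKM, was under the 1 FPKM needed for testing. Its difference of mean log2(FPKM + 1) was -0.37, and -0.23 without wild-type replicate 1. With no filter on low values SLAC1 was tested and missed the threshold (limma adjusted p = 0.106). The summed level of the 7 guard cell markers lay between 24.4 and 28.6 FPKM in wild type and between 33.8 and 41.7 FPKM in the lines. Of the 6 tested markers, HT1, MPK12 and ALMT12 rose and 0 fell, beside 25.0% higher and 15.7% lower of all tested genes. MPK12 lost its call after rescaling to TPM (limma adjusted p = 0.0765). MYB60, FAMA and KAT1 did not pass, and KAT2 was under 1 FPKM. The part of guard cells in the SLAC1 value was not tested. In whole leaves, fewer cells of a type and less RNA per cell cannot be told apart.

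Several of the 9 genes overlap others, and whether strand was used in counting is not given in the sources used here. ABF4 (AT3G19290, chromosome 3, 6687042 to 6690123) shares 28.9% of its exonic bases with AT3G03815 on the other strand. SLAC1 (AT1G12480, chromosome 1, 4257268 to 4259300) shares 36.3% with AT1G04953 and 6.65% with AT1G12470. ABF1 (AT1G49720, chromosome 1, 18400003 to 18402628) shares 7.15% with AT1G49730, which was at 25.0 FPKM in wild type and 21.8 FPKM in the lines and did not pass (adjusted p = 0.108). ABF3 (AT4G34000, chromosome 4, 16295334 to 16298285) shares 0.982% with AT4G34020, which fell by 0.52 on the log2 scale. ABF1 also shares 3.78% with AT1G07587, and ABF4 0.23% with AT3G19300. SNRK2.3 shares 2.81% with AT5G09785 and 1.71% with AT5G66890. All of these neighbours lie on the other strand. AT3G03815, AT1G04953, AT1G07587 and AT5G09785 were not among the genes of the deposited table. The part of overlapping reads in these values was not tested.

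Among the other SnRK2 kinases, SNRK2.1 and SNRK2.4, which respond to osmotic stress without abscisic acid, rose, SNRK2.1 from 57.2 ± 2.82 to 77.7 ± 0.642 FPKM and SNRK2.4 from 53.9 ± 1.88 to 69.9 ± 1.54 FPKM (SD, n = 3; limma adjusted p = 0.000282 and 0.000679). SNRK2.9 fell, with 7.22, 7.24 and 8.58 FPKM in the wild-type samples, against 1.05, 2.05 and 2.24 FPKM in the lines. That fall of 1.67 on the log2 scale (SE 0.193, adjusted p = 0.000122) was larger than any among the 9 genes. The rise of SNRK2.1 ended after rescaling to TPM (adjusted p = 0.371), and that of SNRK2.4 after TPM (0.946), quantile normalization (0.087) and cyclic loess (0.0604). SNRK2.5, SNRK2.8 and SNRK2.10 had log2 fold changes from -0.03 to 0.08 and did not pass as deposited. As deposited, 2 of the 6 tested were thus higher and 1 lower, beside 25.0% and 15.7% of all tested genes. After rescaling to TPM, SNRK2.8 (-0.36, adjusted p = 0.0456) and SNRK2.10 (-0.39, 0.00309) passed as lower, so that of these 6 kinases 0 were higher and 3 lower. Of all 17093 tested genes, 1907 were then higher and 8363 lower, with a median of -0.31. SNRK2.7 was too low to be tested, at 0.258 and 0.485 FPKM.

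Of 5 other bZIP factors of the ABF group that were tested, 3 fell and 0 rose, under every scaling but TPM, where 4 were lower. Of all tested genes, 15.7% fell and 25.0% rose as deposited, and with TPM 8363 of 17093 were lower and 1907 higher. EEL, known to compete with ABI5 for promoters in seeds, was at 20.4, 17.2 and 20.0 FPKM in the wild-type samples, against 15.3, 12.3 and 13.4 FPKM in the lines (log2 fold change -0.46, SE 0.108, limma adjusted p = 0.00802). AREB3 fell from 13.4 ± 2.29 to 9.51 ± 0.399 FPKM, a call lost without wild-type replicate 1 (adjusted p = 0.0574) or line 1 (0.0528). BZIP27, a relative of the flowering factor FD, fell from 3.95 ± 1.04 to 1.16 ± 0.438 FPKM (log2 fold change -1.19, adjusted p = 0.00231). FD had a log2 fold change of -0.50 (adjusted p = 0.0812), which passed without wild-type replicate 1 (0.0209) or line 2 (0.0491), and GBF4 one of 0.11 (0.553). BZIP67 and AT5G42910 were not among the genes of the deposited table. The median of the 5 was -0.46, against 0.03 for all tested genes.

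Both tested relatives of SLAC1 rose in the values as deposited, as did 25.0% of all tested genes. SLAH3, an anion channel that also serves guard cells, was at 60.9, 55.3 and 52.6 FPKM in the wild-type samples, against 75.3, 77.0 and 70.9 FPKM in the lines (log2 fold change 0.40, SE 0.069, limma adjusted p = 0.00151). It was thus far more abundant than SLAC1 in every sample, and its call ended after TPM (adjusted p = 0.771), quantile normalization (0.112) and cyclic loess (0.081). SLAH2, a nitrate channel, went from 4.49 ± 0.124 to 6.36 ± 1.17 FPKM with an adjusted p of 0.0488, lost without any sample but line 3 and in most other alternatives. SLAH1 was at most 0.178 FPKM, and SLAH4 was at 0.726, 0.929 and 0.515 FPKM in wild type and listed at 0 in all 3 lines. With no filter on low values SLAH4 was tested and passed as lower (limma adjusted p = 0.00134) while SLAH2 did not pass (0.0779), so that 1 of the 4 relatives was higher and 1 lower.

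Upstream of the kinases, 2 of 7 tested regulators rose and 0 fell, beside 25.0% of all tested genes called higher and 15.7% called lower. After rescaling to TPM the count was 1 higher and 2 lower, beside 1907 higher and 8363 lower of all 17093 tested genes. BAK1, a receptor kinase that also acts on SNRK2.6, rose from 38.7 ± 1.67 to 72.6 ± 3.98 FPKM (limma adjusted p = 6.46e-06). The Raf-like kinase gene RAF11 rose from 8.46 ± 0.12 to 11.9 ± 0.541 FPKM but did not pass after TPM (adjusted p = 0.361). Of 8 tested receptors, 1 rose and 4 fell: PYL7 rose by 1.02 on the log2 scale, and PYL6, PYL8, PYL4 and PYL5 fell by 2.13, 1.05, 0.48 and 0.25. After rescaling to TPM 1 was higher and 6 were lower, beside the same TPM totals of all tested genes. The PYL5 call as deposited was lost without any 1 of the wild-type samples or line 1. Of 6 tested clade A phosphatases, HAI1, ABI1 and AHG3 rose by 0.59, 0.52 and 0.50 and ABI2 fell by 0.50. After rescaling to TPM the phosphatase count was 0 higher and 1 lower, again beside those TPM totals. After quantile normalization ABI2 lost its call (adjusted p = 0.0543), and without wild-type replicate 1 it did as well (0.0509).

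Beside the factors, the ABI5-binding proteins AFP2 and AFP1, which dampen abscisic acid responses, rose, AFP2 from 5.60 ± 0.079 to 9.33 ± 0.705 FPKM and AFP1 from 9.59 ± 0.065 to 12.9 ± 1.28 FPKM. They were the 2 of 8 tested partners that passed (limma adjusted p = 0.00124 and 0.0128), and 0 fell. Of all tested genes, 25.0% were higher and 15.7% lower. AFP1 lost its call after TPM (adjusted p = 0.728), where 1 partner was higher and 5 were lower. With TPM, 1907 of all 17093 tested genes were higher and 8363 lower. Under each of the 3 remaining scalings 2 were higher and 1 lower. KEG, the ubiquitin ligase that removes ABI5 and ABF proteins, was at 7.31 ± 0.826 FPKM in wild type and 5.87 ± 0.624 FPKM in the lines and did not pass (0.125).

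Of 11 tested genes for other SnRK2 substrates, 1 rose and 4 fell, beside 25.0% higher and 15.7% lower of all tested genes. The oxidase gene RBOHF rose from 5.39 ± 0.306 to 9.54 ± 1.15 FPKM. AKS3 and AKS1, activators of guard cell potassium channel genes that SNRK2.6 inhibits, fell, AKS3 from 5.92 ± 0.747 to 1.86 ± 0.631 FPKM and AKS1 from 5.56 ± 0.608 to 3.81 ± 0.294 FPKM. The AKS1 call (limma adjusted p = 0.0255) was lost without wild-type replicate 1 or 2 or line 1 and after quantile normalization and cyclic loess (adjusted p from 0.0541 to 0.0975). The sucrose exporter genes SWEET12 and SWEET11 fell, SWEET12 from 35.7 ± 0.641 to 19.9 ± 1.85 FPKM and SWEET11 from 30.8 ± 0.919 to 22.1 ± 3.80 FPKM. After rescaling to TPM the count was 1 higher and 7 lower, beside 1907 higher and 8363 lower of all 17093 tested genes.

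For guard cell ion transport and its kinases, 7 of 17 tested genes rose and 3 fell, beside 25.0% higher and 15.7% lower of all tested genes. RBOHF and KAT1 also stand in the list of other SnRK2 substrates. ALMT12, HT1, MPK12, KAT1 and KAT2 are also guard cell markers, so the counts of these lists are not independent. ALMT12, the rapid anion channel that acts beside SLAC1, was at 1.87, 2.901 and 2.54 FPKM in the wild-type samples, against 6.35, 5.36 and 6.10 FPKM in the lines (log2 fold change 1.02, SE 0.16, limma adjusted p = 0.00078). No line came near the wild-type range, and all 6 values exceeded those of SLAC1 in the same sample. RBOHD rose from 101.7 ± 4.31 to 260.3 ± 4.31 FPKM. CPK6, a calcium-dependent kinase that phosphorylates SLAC1, rose from 20.0 ± 0.375 to 35.3 ± 0.578 FPKM, and HT1, a kinase of the CO2 response of stomata, rose from 1.67 ± 0.391 to 4.26 ± 1.68 FPKM. CPK23, another kinase of SLAC1, fell from 11.5 ± 0.911 to 8.68 ± 0.324 FPKM, which missed the threshold without wild-type replicate 1 (adjusted p = 0.0722) or line 3 (0.0504). The call of the potassium channel gene GORK (log2 fold change -0.43, adjusted p = 0.0458) was lost without any single sample, and that of the proton pump gene AHA1 (-0.17, 0.0481) without any but wild-type replicate 3. After rescaling to TPM the count was 5 higher and 7 lower, beside 1907 higher and 8363 lower of all 17093 tested genes.

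From knowledge of the pathway, 22 genes were listed as induced by abscisic acid through promoters that ABF factors bind. Binding was not measured. Of the 22, 15 were tested, 10 rose and 1, ABI2, fell, beside 25.0% higher and 15.7% lower of all tested genes. HB7, HB12, ADH1 and GOLS2 did not pass, with log2 fold changes from -0.15 to 0.13. HAI1, ABI1 and ABI2 also stand in the phosphatase list. NAC019, a stress transcription factor gene, was at 29.6, 23.2 and 27.3 FPKM in the wild-type samples, against 101.0, 105.0 and 100.1 FPKM in the lines (log2 fold change 1.90, SE 0.087, limma adjusted p = 3.6e-07). RD20, a caleosin gene, rose from 19.1 ± 2.07 to 48.9 ± 0.676 FPKM, and RD26, another stress transcription factor gene, from 21.1 ± 2.32 to 50.6 ± 3.86 FPKM. RD29A rose by 1.46 on the log2 scale. RD29B, LEA7, TSPO, HAI2, HAI3, EM1 and EM6 were too low to be tested. The median of the 15 was 0.66, against 0.03 for all tested genes. After rescaling to TPM 8 were higher and 3 lower, beside 1907 higher and 8363 lower of all 17093 tested genes. The median of the 15 was then 0.28, against -0.31. The list was put together with earlier results of these data known, so its direction is a description.

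**Figure D5:**
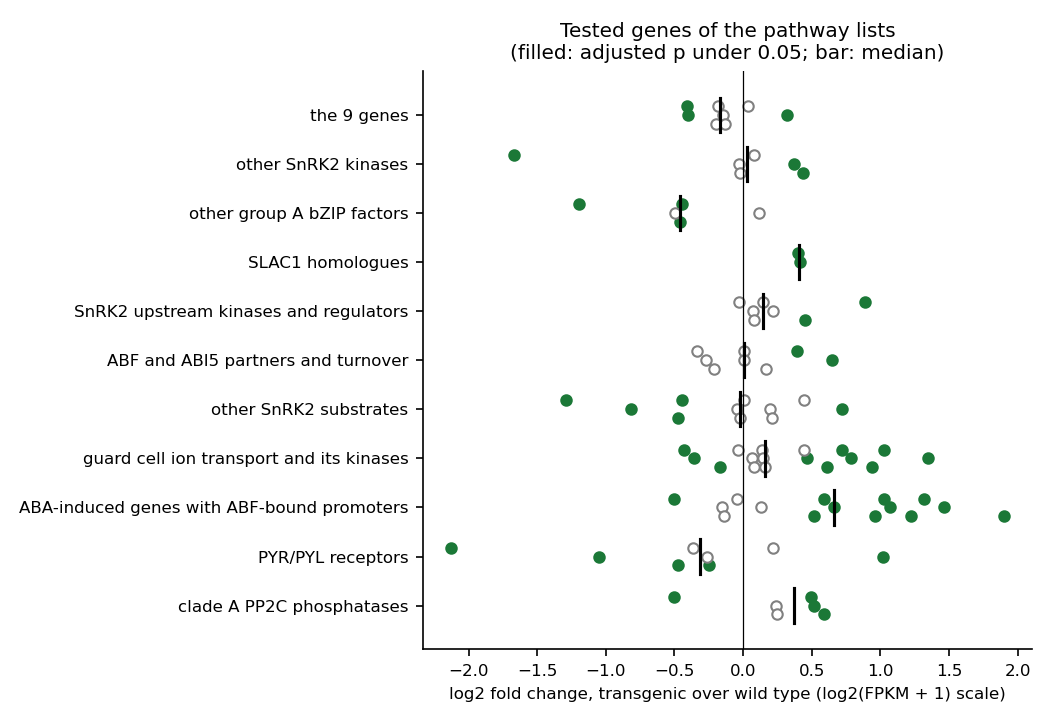
Difference of mean log2(FPKM + 1), transgenic minus wild type (horizontal axis), of the tested genes of each list (points, filled where the limma adjusted p was under 0.05), with the list's median as a bar. The median of the 8 tested genes of the 9 is -0.16, and that of the genes listed as having ABF-bound promoters is 0.66.

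Over the 6 samples, the tested genes whose centred log2 pattern was closest to that of ABF1 were AT5G19170, AT1G72790 and the bZIP factor gene BZO2H1, with root mean square differences of 0.032, 0.036 and 0.041. Their log2 fold changes were -0.38, -0.42 and -0.40, with limma adjusted p of 0.103, 0.0034 and 0.00482.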

How the data were processed

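Leaf mRNA of 3 wild-type samples and 3 transgenic lines was analysed from 1 deposited table, whose FPKM values were made by the authors. Per the submitters' processing notes, the tools were TopHat2 and DESeq and the genome build was TAIR10, with neither versions nor roles named. The sources used here do not give the FPKM program, the annotation or strand use. The table has no coordinates. Positions, overlaps and sequences come from RefSeq's TAIR10.1 genome and annotation, matched by locus, and 123 of 127 listed symbols matched there.

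Columns were matched to samples by their labels. limma 3.58.1 in R 4.3.3 was fitted to log2(FPKM + 1) of all 6 samples, with no covariate, a mean-variance trend and genes of mean 1 FPKM or more, and p-values were adjusted over all 17093 tested genes. The pseudocount lowers fold changes of low genes, and the SE is limma's moderated error. Shares within a family were compared by exact permutation over samples. The alternatives were other pseudocounts, filters, scalings, no trend, a block on title numbers and leaving out each sample. The fit was tested on simulated data.

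The genes and lists were chosen with earlier results of these data known. Named were the 9 genes, 3 families in full, up to 4 called genes in each direction of every other list, and the 3 genes most like ABF1, the called gene with the largest change. The same was planned for SLAC1, which was not tested. Symbols absent from RefSeq are given as loci.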

Additional observations from a re-analysis of the deposited data

How the results depend on the processing

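ABF1 and ABF4 kept direction and call in all 15 alternatives. SNRK2.3 turned to -0.14 (quantile), -0.16 (cyclic loess), -0.012 (median-of-ratios factors) and -0.33 (TPM), and ABF2 to -0.030 (TPM). ABF2 lost its call at 0.27 with median-of-ratios factors. Calls were gained by SNRK2.2 at -0.44 (quantile), -0.43 (cyclic loess), -0.20 (median-of-ratios factors) and -0.52 (TPM), by ABF3 at -0.31, -0.30 and -0.55 (quantile, cyclic loess, TPM), and by SNRK2.6 (-0.47) and ABI5 (-0.50) with TPM. SLAC1 moved to -0.74 at a pseudocount of 0.1. Of the 8 tested members, 0 were called higher with TPM or median-of-ratios factors. Called lower were 4 with quantile or cyclic loess and 7 with TPM. With median-of-ratios factors 3822 of all tested genes were higher and 3123 lower. Over all pathway lists, 27 higher and 16 lower of 80 tested became 16 and 37 with TPM. At a mean of 5 FPKM or more, 25 were higher and 10 lower. There 4096 of 13015 tested genes were higher and 2035 lower. Over all genes, 4273 higher and 2676 lower (61.5% higher) became 3284 and 3434 (48.9%) with quantile normalization, 3290 and 3396 (49.2%) with cyclic loess and 1907 and 8363 (18.6%) with TPM. The cause was not tested.

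Leaving out each sample gave log2 fold changes of -0.18 to -0.10 for SNRK2.2, 0.01 to 0.07 for SNRK2.3, -0.22 to 0.0010 for SNRK2.6, -0.47 to -0.36 for ABF1, 0.25 to 0.38 for ABF2, -0.24 to -0.12 for ABF3, -0.46 to -0.33 for ABF4, -0.33 to -0.015 for ABI5 and -0.45 to -0.23 for SLAC1. Members called ran from 0 to 1 higher and 2 to 3 lower of 8 tested. Pathway genes ran from 26 to 28 higher and 11 to 16 lower of 80 tested. Over all 17093 tested genes, 3778 to 3926 were higher and 2050 to 2470 lower in these fits, against 4273 and 2676 with all samples. Differences of shares ran from -0.444 to 0.212 points for SNRK2.6 and -0.016 to 2.04 for ABF3, both changing sign, and kept theirs for the other 5.

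Whether the title numbers pair the samples is not known. Deviations of same-numbered samples from their group means correlated at -0.035, 0.049 and -0.023 over genes. Line 1 correlated best with wild-type replicate 3 (0.093). Centring each group of 3 makes such values balance around 0, so they cannot decide on pairing. With the replicate block, 4155 genes were higher and 2551 lower, ABF2 missed the threshold at 0.32 (limma adjusted p = 0.0544) and 0 members were higher. FPKM without counts give no counting error.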
